A study of Mus musculus with 16 samples.

Results

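Macrophages that transcribe the complement C1q genes and carry at least 1 Vcam1 transcript were examined in single-cell RNA data from mouse B16 melanomas. A barcode was a member when it held at least 200 genes, at most 10% mitochondrial unique molecular identifiers (UMIs, each standing for 1 captured transcript), at least 10 UMIs of C1qa, C1qb and C1qc together, no Cd3d, Cd3e or Cd3g UMI and at least 1 Vcam1 UMI. It also had to stay under limits on genes of other macrophage states: at most 1 UMI of Nos2, at most 1 of Lyve1, Cd163 and Cd209f together, at most 4 of Rsad2, Ifit1, Ifit2 and Ifit3 together, at most 2 of Mmp12, at most 2 of Arg1 and none of H2-M2. Members were thus chosen by measured UMI counts, those of the genes in this rule. It was met by 6228 of 116552 barcodes. They made up 6.27% of the 99357 barcodes that passed the gene and mitochondrial limits, 22.7% of the 27418 C1q macrophages (at least 10 C1q UMIs, no Cd3 UMI) and 45.8% of the 13584 C1q macrophages that met every other limit. The other 7356 of those 13584 had no Vcam1 UMI and are called Vcam1-negative here. A further set of 3098 C1q macrophages with at least 2 UMIs of Lyve1, Cd163 and Cd209f served as a second comparison.

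Vcam1 encodes vascular cell adhesion molecule, an immunoglobulin-family surface protein that binds integrins containing the Itga4 chain. It is best known from activated endothelium, where it holds passing leukocytes, and it is also found on macrophages of the splenic red pulp and of tumours. C1q starts the classical complement pathway, and tissue macrophages are its main source, whereas freshly arrived monocytes carry Ccr2 and Ly6c2 and little C1q. Of the other genes given as markers of these cells, Slc13a3 encodes a sodium-coupled transporter of dicarboxylates, Slamf9 a receptor of the SLAM family, and Ms4a7 a membrane-spanning protein of macrophages.

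C57BL/6J mice carried subcutaneous tumours grown from 1000000 Bro4.1 B16 melanoma cells, either control or lacking B2m, the invariant chain of MHC class I. Each mouse received 100 µg of a CD40-activating antibody or of the rat IgG2a isotype control by intraperitoneal injection on days 6, 9 and 12, and tumours were taken on day 14. CD45-positive cells were enriched on magnetic beads, labelled per mouse with hashtag antibodies and pooled by group. The 8 lanes hold 4 groups: control tumours with isotype (control isotype, 5 mice in 2 lanes), control tumours with anti-CD40 (control CD40, 2 mice, 1 pool run in 2 technical lanes), B2m-null tumours with isotype (B2m-null isotype, 5 mice in 2 lanes) and B2m-null tumours with anti-CD40 (B2m-null CD40, 4 mice in 2 lanes). The sample labels give the genotype as if it were the mouse's, whereas the series' design states that the injected melanoma cells lacked B2m. In the members, B2m was read in all 16 mice, at 2967 to 3865 CPM (counts scaled to a common total of 1000000) in the control isotype group and 2055 to 3167 CPM in the B2m-null isotype group, so the macrophages themselves held B2m transcripts. Transcript counts alone cannot tell whether the gene was intact in these cells. Whether the line is a single clone is not given in the sources used here.

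The 8 lanes held 541098978 UMIs, of which members held 49204221. Members numbered 1923 in control isotype, 1184 in control CD40, 1736 in B2m-null isotype and 1385 in B2m-null CD40. Hashtags placed 4870 of them in a mouse, 386 carried hashtags of 2 or more mice and 972 had no clear hashtag. Of the unplaced, 624 lay in the first B2m-null isotype lane, where hashtags placed 24.1% of barcodes, so that mice 2 and 3 of that lane rest on 21 and 25 members against 145 to 939 in the other 14. CPM values below were summed over the members of a mouse, and 1 mouse is 1 replicate. Mice of a group shared 1 or 2 pools, so an effect of the pool and of the group cannot be fully told apart. Lanes shared 41 to 92 barcodes by pair, and at most 1 of those was a member in both.

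The limits on other states removed unequal shares of C1q macrophages in the 4 groups. The Nos2 limit alone was failed by 5.61% of C1q macrophages in control isotype, 16.6% in control CD40, 1.89% in B2m-null isotype and 18.6% in B2m-null CD40. The Lyve1, Cd163 and Cd209f limit was failed by 8.78%, 4.94%, 20.3% and 8.96% in the same order, and the interferon limit by 19.6%, 8.27%, 11.4% and 13%. Group differences within the members therefore describe cells under these limits, and were not measured over all C1q macrophages.

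Vcam1 lies on chromosome 3 (GRCm38, 116109949 to 116129688, minus strand), Slc13a3 on chromosome 2 (165405028 to 165473230, minus strand), Slamf9 on chromosome 1 (172475358 to 172478575, plus strand) and Ms4a7 on chromosome 19 (11321039 to 11336146, minus strand). The RefSeq promoter table (GRCm38.p6, 250 bases before to 50 after each start) held no window for Vcam1, and windows for Slamf9, Slc13a3 and Ms4a7. These were searched on both strands for the letters GAGGAAGT, a core recognised by PU.1 (Spi1), the macrophage lineage factor, and for the kappaB site. The first was found in 3.2% and the second in 1.29% of 32851 promoters. A single match was found among the 3 genes, in Slamf9. It is printed because it is the only such match among the 3 markers searched. The matched letters are in capitals, on the plus strand 8 bases before the start (chr1:172475342-172475369):
Slamf9: aatgtgtacaGAGGAAGTtggagggaga
The match is a description of these letters and no binding was measured.

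The label was first checked against the markers given for it. In members the mean level over 16 mice was 627 ± 166 CPM (SD, n = 16) for Vcam1, 880 ± 185 CPM for Ms4a7, 122 ± 40.1 CPM for Slamf9 and 37.2 ± 23.0 CPM for Slc13a3. Barcodes without any C1q UMI held 21.0 CPM of Vcam1, 62.2 CPM of Ms4a7, 25.4 CPM of Slamf9 and 2.09 CPM of Slc13a3. The Vcam1 gap is set by the rule, and all C1q macrophages stood at 268 CPM. In Vcam1-negative cells the means were 793 CPM for Ms4a7, 160 CPM for Slamf9 and 58.0 CPM for Slc13a3.

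Slamf9 was lower in members than in Vcam1-negative cells of the same mouse (log2 difference -0.36 ± 0.07 SE, adjusted p = 0.00038, edgeR's quasi-likelihood test with the mouse as block, Benjamini-Hochberg adjustment over 8910 genes), in 13 of 16 mice. Slc13a3 was lower as well (-0.47 ± 0.12, adjusted p = 0.0064), in 12 of 16 mice. The Ms4a7 difference, 0.15 ± 0.08, did not pass (adjusted p = 0.16). It passed as higher, and Slamf9 and Slc13a3 as lower, both with cells thinned to 3000 UMIs and against Vcam1-negative cells of matched depth. A Slamf9 UMI was seen in 45.2% of members and 34.9% of Vcam1-negative cells, but members had a median of 6702 UMIs and the negatives 4253.5. At 3000 UMIs per cell the shares were 27.1% and 27.2%. For Slc13a3 they were 7.56% and 8.21% at 3000 UMIs, and for Ms4a7 81.4% and 70.4%. T cell barcodes, which should lack these genes, held a Slamf9 UMI in 1.86%, a Slc13a3 UMI in 0.370% and an Ms4a7 UMI in 4.20% at a median of 2522 UMIs.

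Vcam1 itself, on which the rule rests, is given as a description. Of the members, 27.1% held 1 Vcam1 UMI, 15.7% held 2, 11% held 3 and 20.8% held 8 or more, with 87 the highest count. A Vcam1 UMI was present in 44.6% of all C1q macrophages (median 6436.5 UMIs), 34.2% of the Lyve1-Cd163 set, 3.14% of barcodes without C1q UMIs (median 1816) and 2.12% of T cell barcodes. The 208 cells that met every other limit but held 8 or 9 C1q UMIs had 823 CPM of Vcam1 and 604 CPM of Ms4a7, at a median of 2321.5 UMIs. The 318 members with 10 to 12 C1q UMIs had 821 and 667 CPM, at a median of 2759.5 UMIs. Both sets had to hold at least 1 Vcam1 UMI, which in such shallow cells sets a high Vcam1 level by itself.

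Several genes followed the number of Vcam1 UMIs in a barcode in steps. Pooled Ccr2, the receptor that brings monocytes into tissue, stood at 286 CPM with 0 Vcam1 UMIs, 148 with 1, 125 with 2, 78.7 with 3, 67.7 with 4 to 7 and 42.4 with 8 or more. S100a4 went from 1010 to 128 CPM and Ly6c2 from 83.7 to 13.4 CPM between the ends of that range. In the other direction Cd81, a tetraspanin, went from 204 to 495 CPM and Cadm1, an adhesion molecule, from 76.4 to 169 CPM. Cxcl9, the interferon-gamma-induced ligand of Cxcr3, peaked at 3 Vcam1 UMIs (1031 CPM, against 465 with 0 and 863 with 8 or more). Cells with a single Vcam1 UMI lay between the negatives and the cells with more for Ccr2, S100a4, Ly6c2, Cd81 and Cadm1. The median number of UMIs per barcode also moved with this order, from 4253.5 to 9149.5, and the median of C1q UMIs from 26 to 85. The levels were therefore also compared with Vcam1-negative cells of matched depth.

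**Figure D1:**
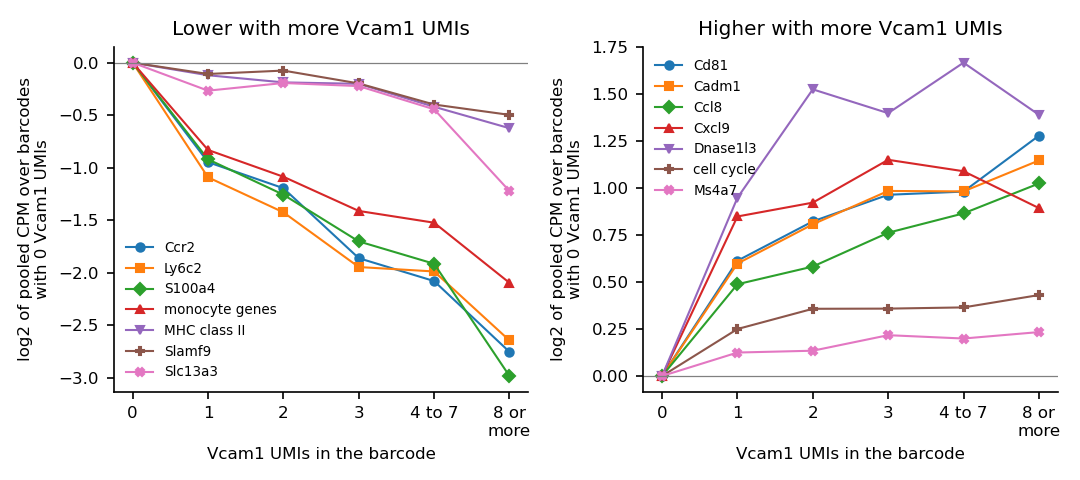
Pooled level of each gene or summed list in C1q macrophages that met the other limits, by the number of Vcam1 UMIs in the barcode (x axis), as log2 of CPM over barcodes with 0 Vcam1 UMIs (y axis). Left, genes that were lower at high Vcam1, such as Ccr2 (286 to 42.4 CPM) and S100a4 (1010 to 128 CPM). Right, genes that were higher, such as Cd81 (204 to 495 CPM) and Dnase1l3 (8.47 to 22.2 CPM). Cells are pooled over mice, so the lines carry no error.

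Compared within each mouse, Vcam1-positive cells held less of the monocyte genes than Vcam1-negative cells. Among the genes they held more of were Dnase1l3, Cxcl9, Cd81, Cadm1 and Ccl8. All 13 tested genes of the monocyte list were lower, among them Ly6c2, Ccr2, S100a4, S100a6 and Plac8. The test called 2160 of 8910 genes (24.2%), 1022 higher (11.5%) and 1138 lower (12.8%).

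Cxcl9 ranged over mice from 28.2 CPM (median 911, highest 1679) in members and from 24.7 (median 486, highest 763) in Vcam1-negative cells. The ranges of the sets overlap, yet within every mouse the members were higher: 16 of 16, with a log2 difference of 1.03 ± 0.06 (adjusted p = 4.8e-12). Without the mouse as block the adjusted p was 0.081. Cd81 had 301 to 510 CPM in members (median 399) and 141 to 283 in Vcam1-negative cells (median 196), so the sets did not overlap over the 16 mice. Its log2 difference was 0.98 ± 0.06 (adjusted p = 6.2e-12). Dnase1l3, a secreted nuclease that digests the DNA of dying cells, showed the largest rise among the 24 genes named by size and by the same direction in every mouse, 1.60 ± 0.13, from 6.81 to 25.3 CPM. Ccl8, a chemokine of macrophages, was abundant in both sets and rose by 0.82 ± 0.07, from 2442 to 4375 CPM. Cadm1 rose by 0.95 ± 0.09, Hgsnat, a lysosomal enzyme of heparan sulfate breakdown, by 0.89 ± 0.08, and Adcy3, an adenylate cyclase, by 0.78 ± 0.10. Each of these rises was seen in 16 of 16 mice.

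Among the lower genes, Ccr2 stood at 47.5 to 166 CPM in members (median 80.7) and at 119 to 600 CPM in Vcam1-negative cells (median 295). The log2 difference was -1.75 ± 0.11 (adjusted p = 1.3e-11), and members were lower in 16 of 16 mice. S100a4, a calcium-binding protein of motile cells, fell by 1.75 ± 0.09 on the log2 scale, Ly6c2 by 1.86 ± 0.16, S100a6 by 1.55 ± 0.09 and Lsp1, an actin-binding protein of leukocytes, by 1.47 ± 0.10. Itgb7, which pairs with Itga4 in a receptor for Vcam1, fell by 1.51 ± 0.11, to 11.5 from 32.4 CPM. Itga4 itself was at 77.9 against 90.3 CPM (-0.23 ± 0.05, adjusted p = 0.0023), and Itgb1, its more abundant partner, was slightly higher (310 against 281 CPM, 0.12 ± 0.03, adjusted p = 0.0040). Il1b was at 89.1 CPM in members and 198 CPM in negatives, a log2 difference of -1.15 ± 0.11.

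**Figure D2:**
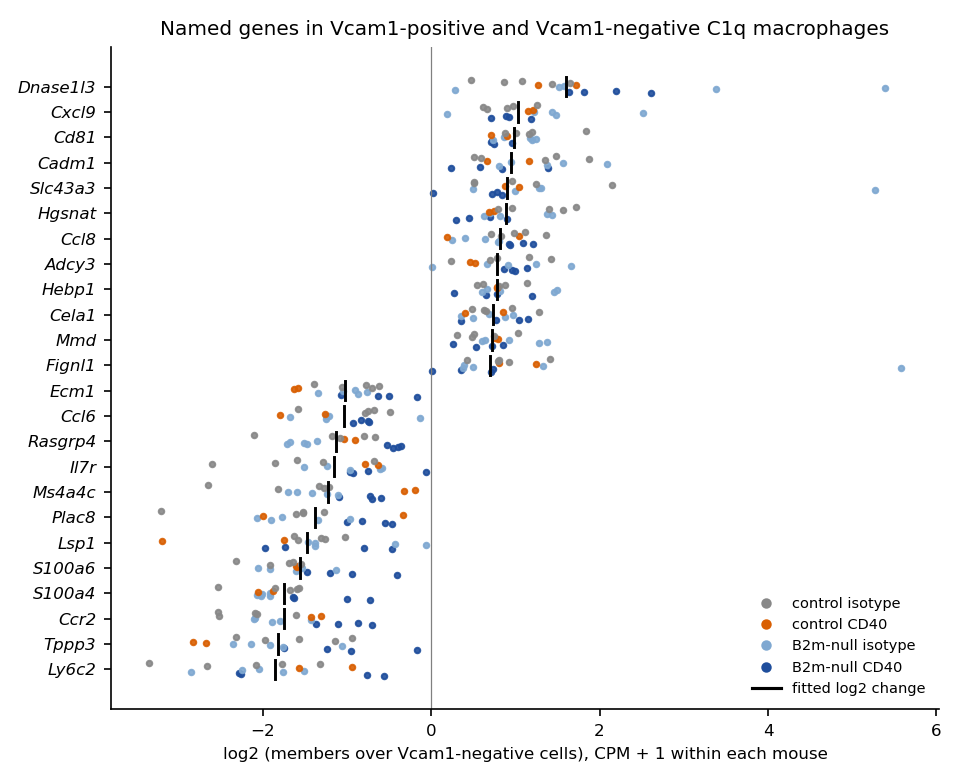
Ratio of members to Vcam1-negative cells within each mouse (log2 of CPM + 1, x axis) for the 24 genes named by size (y axis), 1 point per mouse coloured by group, with a black bar at the fitted log2 difference. Points of all 16 mice lie on 1 side of 0 for each gene, from Dnase1l3 (1.60) to Ly6c2 (-1.86).

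Other lists moved less evenly. Genes of apoptotic cell uptake were higher in 6 of 12 and lower in 1 (median log2 0.14, against 0.0001 over all tested genes), with Stab1, a scavenger receptor, at 0.60 ± 0.06, Axl at 0.52 ± 0.06 and Mertk, a receptor for dying cells, at 0.22 ± 0.05. Of the red pulp and iron list 7 of 16 were higher and 1 lower, among them Spic, the lineage factor of red pulp macrophages, at 1.13 ± 0.18 (12.1 against 8.79 CPM) and Slc40a1, the iron exporter ferroportin, at 1.03 ± 0.20 (51.1 against 32.0 CPM). Of 15 inflammatory cytokine genes 8 were lower and 2 higher (4 lower without the second B2m-null isotype lane, 5 without either control isotype lane), of 21 CD40 and NF-kB genes 11 were lower and 1 higher, and of 18 glycolysis and hypoxia genes 11 were lower and 1 higher. The transcription factor list had 12 of 22 lower and 2 higher (median -0.15), with Cebpb at -0.51 ± 0.06 and Nr4a1 at -0.90 ± 0.09. Against cells of matched depth it had 3 lower and 2 higher (median 0.03), and both of these genes kept their calls there.

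Several list differences were smaller against cells of matched depth. Against 2043 Vcam1-negative cells chosen to match the members' depth (median 6749 UMIs against 6915), 830 genes were called. Cd81 (0.82), Cadm1 (0.63), Ccl8 (0.92), Cxcl9 (1.06), Ccr2 (-1.27) and Ly6c2 (-1.35) kept their calls. The cell cycle list, with 20 of 20 genes higher and a median of 0.52 in the main comparison, had 1 of 20 and a median of 0.08 there. MHC class II went from 8 of 9 lower (median -0.36) to 0 of 9 (-0.10), type I interferon from 13 of 18 lower (-0.45) to 1 (-0.13), and the lysosome list from 7 higher and 6 lower of 22 to 11 higher and 3 lower. The CD40 and NF-kB list went from 11 of 21 lower (median -0.19) to 2 (-0.01), inflammatory cytokines from 8 of 15 lower (-0.31) to 3 of 13 (-0.12), and lipid-associated genes from 3 higher and 10 lower of 21 (-0.12) to 5 higher and 6 lower (-0.0017). MHC class I went from 2 higher and 5 lower of 14 to 0 higher and 1 lower. The interferon-gamma response went from 4 higher and 6 lower of 21 (median -0.01) to 6 higher and 1 lower (0.09). Without the first control isotype lane the main comparison had 3 lower in each of the MHC class I, interferon-gamma and lysosome lists. Thinning every cell to 3000 UMIs moved the lists less. It kept members and Vcam1-negative cells as chosen at full depth, so it cannot control for members being the deeper cells. There the cell cycle list had 20 of 20 higher (median 0.55), MHC class II 7 of 9 lower (-0.31), type I interferon 8 of 16 lower (-0.41), inflammatory cytokines 5 of 12 lower (-0.28) and the CD40 and NF-kB list 7 of 20 lower (-0.13). The 2 settings differ for these lists, and of them only the matched cells are of like full depth. What else sets them apart was not tested.

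Of other cell types, the fibroblast list had 3 of 3 tested genes higher in members (median 2.83), the melanoma list 2 of 7 higher and none lower (0.39, and 0 of 6 at matched depth) and the neutrophil list 2 of 2 lower (-0.75). Among the fibroblast genes were Col1a2 at 60.5 against 6.62 CPM (log2 3.38 ± 0.40) and Col3a1 at 80.3 against 11.7 CPM. Few cells held most of them: 44 members (0.707%) had 10 or more fibroblast UMIs against 17 negatives (0.231%), and 77.0% of members had no fibroblast or endothelial UMI. The median Col1a2 level over mice was 23.9 CPM in members, with the highest mouse at 536 CPM.

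Against the Lyve1-Cd163 set the members held more Cxcl9, MHC class II and cell cycle transcripts. They held far less of the resident scavenger program, a gap that follows the choice of both sets by Lyve1, Cd163 and Cd209f UMIs. Of 7957 genes tested, 3575 (44.9%) were called, 1799 higher (22.6%) and 1776 lower (22.3%). The Lyve1-Cd163 set was not held to the limits on interferon genes, Nos2, Arg1, Mmp12 or H2-M2. The interferon and scavenger limits capped the members only, so those lists are given as descriptions: 18 of 18 type I interferon genes were lower (median -1.10), and of 21 interferon-gamma response genes 4 were higher and 8 lower (median -0.01). Of other cell types, the melanoma list had 5 of 6 tested genes higher in members (median 0.65) and the fibroblast list 2 of 2 (median 2.15), and their part in the other differences was not tested.

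Cadm1 ranged from 65.8 to 245 CPM over mice in members (median 140) and from 7.80 to 114 CPM in the Lyve1-Cd163 set (median 38.6). The members were higher in 16 of 16 mice, by 1.71 ± 0.11 on the log2 scale (adjusted p = 4.3e-13). Axl, a receptor for Gas6 on dying cells, rose by 1.59 ± 0.11 (120 against 37.3 CPM), while its ligand Gas6 fell by 1.68 ± 0.13 (182 against 496 CPM). Cx3cr1, the fractalkine receptor, rose by 1.66 ± 0.15, and Tgfbr1 by 1.2 ± 0.10. Cxcl9 was at 870 against 250 CPM (1.79 ± 0.11) and Cxcl10 at 411 against 235 CPM (0.72 ± 0.12). They are 2 of the 4 interferon-gamma response genes called higher, beside 8 called lower. With single mice or lanes left out, 4 to 7 of that list were higher and 6 to 8 lower.

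Fcgrt, the neonatal Fc receptor, fell by 2.08 ± 0.09 on the log2 scale against the Lyve1-Cd163 set, from 556 to 140 CPM. Retnla, a gene of alternatively activated macrophages, fell by 5.70 ± 0.24, Timd4, a phosphatidylserine receptor of resident macrophages, by 5.21 ± 0.24 and Cd209g by 7.19 ± 0.15. Timd4 was at 36.4 CPM there and at 0.74 CPM in members. Both sets were chosen by Lyve1, Cd163 and Cd209f UMIs, so falls in resident genes are descriptions. The transcription factor Klf4 fell by 1.68 ± 0.09 and Klf2 by 1.56 ± 0.10. In lists, 8 of 9 MHC class II genes and 20 of 20 cell cycle genes were higher (medians 0.54 and 0.73, against 0.01 over all tested genes). Lower were 7 of 10 complement genes, 14 of 22 lysosome genes and, as a description, 14 of 16 scavenger genes. Ms4a7 was higher (0.29 ± 0.06, adjusted p = 0.00018), Slc13a3 lower (-0.58 ± 0.15, adjusted p = 0.0020), and Slamf9 differed by 0.18 ± 0.12 (adjusted p = 0.22). Without cells of over 5% mitochondrial or under 1000 UMIs the calls numbered 2231, with 4 of 9 MHC class II genes higher.

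The members' share of C1q macrophages did not separate the groups. It was 23.3, 18.1, 24.3, 29.7 and 24.6% in the control isotype mice, 18.1 and 24.9% in control CD40, 32.2, 14.8, 17.7, 16.7 and 20.5% in B2m-null isotype and 17.6, 21.4, 23.3 and 24.7% in B2m-null CD40. All 4 groups overlapped. CD40 against isotype gave -2.50 percentage points in control tumours (exact permutation test, two-sided, p = 0.62, smallest p possible 0.048) and 1.36 points in B2m-null tumours (exact p = 0.77, smallest 0.0079). B2m-null against control tumours gave -3.63 points under isotype (exact p = 0.33) and 0.22 points under anti-CD40 (exact p = 1.00, smallest 0.067). All 4 adjusted p-values were 1.00.

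At 3000 UMIs per cell a Vcam1 UMI was present in 40.7 ± 9.13% (SD, n = 5) of the C1q macrophages meeting the other limits in control isotype, 33.8 ± 5.93% (n = 2) in control CD40, 40.7 ± 7.84% (n = 5) in B2m-null isotype and 35.3 ± 7.09% (n = 4) in B2m-null CD40. The differences between treatments were -6.93 and -5.38 points in control and B2m-null tumours (exact permutation p = 0.38 and 0.36). These values do not show that the shares were equal: with 2 to 5 mice a group, the SD within a group was 3.08 to 6.91 points for the share of C1q macrophages. C1q macrophages made up 31.3 ± 7.80% of barcodes in control isotype and 17.9 ± 4.88% in control CD40 (exact permutation p = 0.095, adjusted p = 0.38 over 12 comparisons), and 35.5 ± 14.5% and 30.0 ± 3.69% in B2m-null isotype and B2m-null CD40 (exact permutation p = 0.46, adjusted p = 0.79). In such data fewer cells and lower detection per cell cannot be told apart from the share alone.

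**Figure D3:**
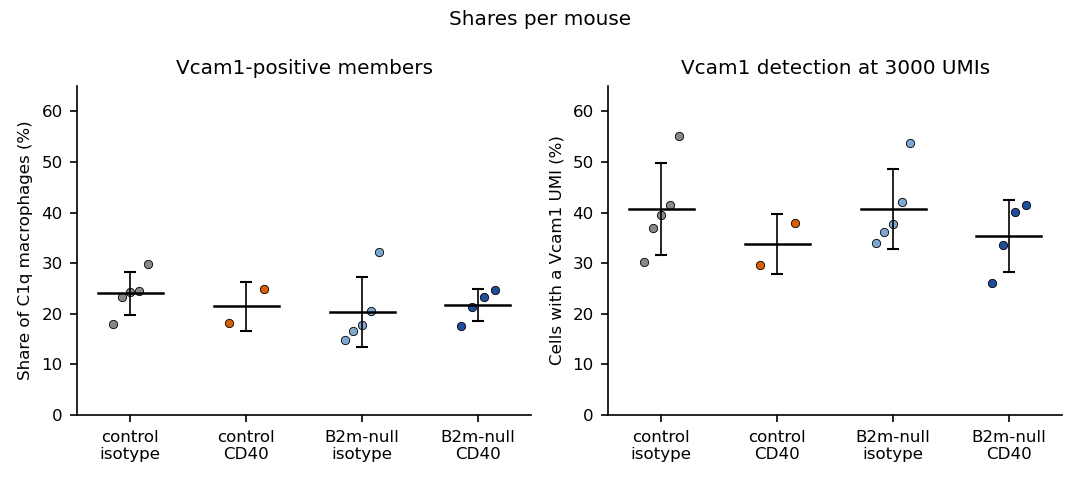
Left, Vcam1-positive members as a share of C1q macrophages (%); right, share of C1q macrophages meeting the other limits with a Vcam1 UMI when each cell is thinned to 3000 UMIs (%). Points are mice, lines are means and bars are 1 SD. The group means run from 20.4 to 24.0% on the left and from 33.8 to 40.7% on the right, and all groups overlap.

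In control tumours anti-CD40 raised Saa3, Lyz1, Fxyd2, Htra1 and Gpnmb in the members and lowered Hist1h1b, Hist1h1e and Fcrls. Of 10281 genes tested 907 (8.82%) were called, 590 higher (5.74%) and 317 lower (3.08%). The control CD40 group has 2 mice of unequal weight (166 and 939 members), both from 1 pool. An effect of that pool cannot be told apart from an effect of the group in any comparison between groups that uses it. Without its mouse 1 the calls numbered 403, without its mouse 2 they numbered 168, and without the first control isotype lane 435.

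Saa3, an acute-phase serum amyloid protein made by activated macrophages, had 1.49, 13.4, 2.15, 0.84 and 1.60 CPM in the control isotype mice and 40.5 and 292 CPM in the control CD40 mice. The groups did not overlap, though the CD40 mice lay far apart. The log2 change was 6.32 ± 0.65 (adjusted p = 1.4e-06, edgeR's quasi-likelihood test over mice). Fxyd2, a regulator of the sodium pump, had 2.24, 8.06, 5.85, 4.39 and 6.71 CPM under isotype and 72.0 and 29.6 CPM under anti-CD40 (3.21 ± 0.35, adjusted p = 2.3e-06). Lyz1, a lysozyme, had 5.22, 11.6, 8.31, 3.98 and 13.1 CPM against 98.0 and 55.6 CPM (3.33 ± 0.44, adjusted p = 2.8e-05). Its sequence is close to that of Lyz2, so how reads were split between these genes is uncertain.

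Gpnmb, a membrane glycoprotein of lipid-laden macrophages, had 107, 51.1, 68.6, 113 and 110 CPM in control isotype and 410 and 433 CPM in control CD40, a log2 change of 2.39 ± 0.38 (adjusted p = 0.00033). Hcst, the adaptor DAP10, had 24.2 to 38.3 CPM against 78.3 and 95.5 CPM (1.78 ± 0.18, adjusted p = 1.4e-06). Both separated the groups without overlap. In the lowered direction Hist1h1b, a linker histone of dividing cells, had 98.5 to 175 CPM under isotype and 23.4 and 17.0 CPM under anti-CD40 (-2.73 ± 0.27, adjusted p = 1.1e-06). Fcrls had 18.7, 56.4, 39.1, 16.7 and 42.5 CPM against 6.30 and 1.80 CPM (-3.49 ± 0.79, adjusted p = 0.0071). Fcrls and most of the 79 genes named for this comparison lost their calls when some mouse or lane was left out.

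Of the lists, 8 of 21 genes of lipid-associated macrophages were higher and none lower (median 0.41, against 0.00 over all tested genes), with Tyrobp at 0.68 ± 0.13, Ctsd, a lysosomal protease, at 0.70 ± 0.14 and Npc2, a cholesterol carrier, at 0.41 ± 0.09. The count was 4 without control CD40 mouse 1, 2 without mouse 2, 3 with the lane as unit and 4 (median 0.21) without members holding 2 or more UMIs of other cell types. The lysosome list had 7 of 22 higher, with 3 and 2 without those mice and 2 and 4 without the first and second control isotype lanes. For the lipid list the count without the first control isotype lane was 4. Of 20 cell cycle genes 4 were lower, among them Mki67 (-1.18 ± 0.26) and Top2a (-0.78 ± 0.21), and 0 to 6 passed when single mice or lanes were left out, 0 without mouse 2. Over the other alternatives the cell cycle count ran from 1 to 9. None of 21 interferon-gamma response genes (median 0.33) and none of 19 type I interferon genes (median -0.10) passed. With 2 mice in control CD40, this does not show that these lists were unchanged. Of the given markers Ms4a7 rose (0.81 ± 0.14, adjusted p = 0.00084) and Slc13a3 rose (0.85 ± 0.19, adjusted p = 0.0059), and Slamf9 differed by 0.40 ± 0.22 (adjusted p = 0.28).

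Transcripts of other cell types moved with anti-CD40. The summed B and plasma cell list was at 107 to 149 CPM in control isotype and 184 to 433 CPM in control CD40, with 4 of 5 genes called higher, Igkc (5.58 ± 0.92) among them. The neutrophil list was at 13.4 to 49.5 against 53.1 to 96.5 CPM, with 3 of 4 genes higher, S100a8 (2.74 ± 0.47) among them and Retnlg at 0 in both groups. The dendritic cell list was at 45.0 to 71.6 against 6.30 to 12.8 CPM, with Cd209a and Ccl17 at 0 in control CD40. The melanoma list was at 86.9 to 467 against 265 to 894 CPM, with 0 of 8 genes called (median 1.06). Without members holding 2 or more UMIs of other cell types (the T and NK cell, B and plasma cell, neutrophil and melanoma lists together) 490 genes were called. Without those cells the lysosome count was 4 of 22 (median 0.27) and the cell cycle count 1 of 20 (median -0.67). Slc13a3 (0.61, adjusted p = 0.22), Npc2 (0.33, adjusted p = 0.062), Mki67 (-1.01, adjusted p = 0.064) and Top2a (-0.74, adjusted p = 0.18) lost their calls there. Ctsk was 2.30 ± 0.44 with all members and -0.40 (adjusted p = 0.76) without those cells.

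In B2m-null tumours the genes that changed in the members under anti-CD40 included interferon, MHC and complement genes. Cxcl13, Ly6i, Saa3, Lyz1, C3 and Cfb rose, most members of the MHC class I and II lists rose, and Mrc1, Igf1, Fcrls, Hist1h1b and Hist1h1e fell. The test called 2401 of 10281 genes (23.4%), 1299 higher (12.6%) and 1102 lower (10.7%). Without the second B2m-null CD40 lane 1406 were called. With 4 CD40 mice here and 2 in control tumours, the counts of the genotypes differ in power and are not compared.

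Saa3 had 10.7, 9.40, 13.6, 5.13 and 7.85 CPM in the B2m-null isotype mice and 453, 214, 173 and 102 CPM in the B2m-null CD40 mice. The lowest CD40 mouse lay well above the highest isotype mouse, and the log2 change was 4.99 ± 0.59 (adjusted p = 1.3e-05). Complement C3, the central protein of the cascade that C1q starts, had 30.4, 18.8, 40.9, 93.8 and 18.5 CPM against 650, 400, 225 and 310.1 CPM (3.33 ± 0.41, adjusted p = 2.0e-05), again without overlap. Cfb, factor B of the alternative pathway, rose by 2.94 ± 0.26.

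Cxcl13, the ligand of Cxcr5 on B cells and follicular helper T cells, was higher in members of this group than in the others. It had 116, 113, 50.8 and 37.0 CPM in the B2m-null CD40 mice, 555 UMIs in members placed in a mouse. Over all members, placed in a mouse or not, B2m-null CD40 held 847 Cxcl13 UMIs, in 56 of 1385 cells. Members of B2m-null isotype held 6 among 14627020 UMIs, members of control CD40 9 among 8304675, and members of control isotype 0 among 15846192, where a count of 0 allows up to 0.189 CPM. The pooled level in B2m-null CD40 was 198 times that of B2m-null isotype (95% exact interval 90.6 to 541) and 75.0 times that of control CD40 (39.3 to 165). Over members placed in a mouse alone, where B2m-null isotype held 1 UMI and control CD40 5, the ratios were 638 (114 to 25244) and 102 (43.4 to 315). These intervals cover counting error only. In the Lyve1-Cd163 set Cxcl13 averaged 384 CPM over the 16 mice against 19.9 CPM in members.

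Ly6i, a GPI-anchored protein induced by interferon, had 1.52, 0, 0, 7.47 and 2.06 CPM in B2m-null isotype and 198, 202, 70.2 and 62.9 CPM in B2m-null CD40 (5.48 ± 0.55, adjusted p = 1.9e-06); it belongs to a family of close paralogs. Slc13a3 had 22.3, 9.40, 27.3, 20.5 and 18.9 CPM against 56.6, 72.4, 89.9 and 67.1 CPM (2.06 ± 0.17, adjusted p = 5.2e-07). Slamf9 rose by 0.93 ± 0.21 (adjusted p = 0.0029) and Ms4a7 by 0.51 ± 0.12 (adjusted p = 0.0042). All 3 given markers other than Vcam1 thus rose under anti-CD40 in B2m-null tumours, and the Slc13a3 groups did not overlap.

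The interferon-gamma response list had 16 of 21 genes higher and none lower (median 1.45, against -0.01 over all tested genes), with Cd274, which encodes PD-L1, at 1.41 ± 0.25 and Socs3 at 1.67 ± 0.21. Without the first B2m-null isotype lane 8 of 21 passed, with a median of 1.31. MHC class I had 11 of 14 higher (median 0.97), with Psmb8, an immunoproteasome subunit, at 1.54 ± 0.18 and B2m itself at 0.89 ± 0.11. MHC class II had 9 of 10 higher (median 1.49). H2-Aa was at 519, 1748, 914, 1308 and 406 CPM under isotype and 2510, 1721, 2806 and 3368 CPM under anti-CD40, so a single isotype mouse reached the lowest CD40 mouse. Type I interferon had 14 of 19 higher (median 1.10; 8 without the second B2m-null isotype lane) and the CD40 and NF-kB list 15 of 21 (median 0.79; 8 without the first B2m-null CD40 lane), with Birc3, an NF-kB target that blocks cell death, at 1.28 ± 0.19. The limit on Rsad2 and the Ifit genes caps the type I response that a member can show. The receptor Cd40 rose by 1.23 ± 0.29 (adjusted p = 0.0045).

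Scavenger and resident genes went the other way, with 8 of 15 lower and 2 higher (median -0.78). Mrc1, the mannose receptor, fell by 1.33 ± 0.18, Igf1, a growth factor, by 1.37 ± 0.21 and Pf4, a chemokine, by 0.78 ± 0.16. The monocyte list had 7 of 14 higher and 1 lower (median 1.16), with S100a4 at 1.90 ± 0.26 and Plac8 at 2.17 ± 0.43. Without the second B2m-null isotype lane the scavenger count was 4 and the monocyte count 4, and without the first B2m-null CD40 lane the scavenger count was 5. Hist1h1b had 107, 75.2, 143, 140 and 150 CPM against 25.6, 32.5, 15.0 and 28.5 CPM (-2.21 ± 0.22, adjusted p = 1.9e-06), while 4 of 20 cell cycle genes were lower, Mki67 among them (-1.21 ± 0.21), a count of 10 without the first and 2 without the second B2m-null CD40 lane. The B and plasma cell list was at 72.7 to 188 CPM under isotype and 155 to 236 CPM under anti-CD40, with 3 of 5 genes higher (median 5.04). The fibroblast list was at 8.87 to 337 and 174 to 2405 CPM, with 1 of 8 genes higher (median 2.22). The dendritic cell list was at 19.2 to 75.2 and 10.5 to 44.5 CPM, with 2 of 6 genes lower. The melanoma list was at 103 to 2536 and 42.7 to 270 CPM, with 2 of 8 lower. The neutrophil list was at 17.7 to 34.1 against 43.8 to 65 CPM, without overlap, with 3 of 4 genes higher (median 2.75). Without members holding 2 or more UMIs of other cell types 1636 genes were called, and 2150 without cells holding a fibroblast or endothelial UMI. In the first of these Ms4a7 lost its call (0.34, adjusted p = 0.062).

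**Figure D4:**
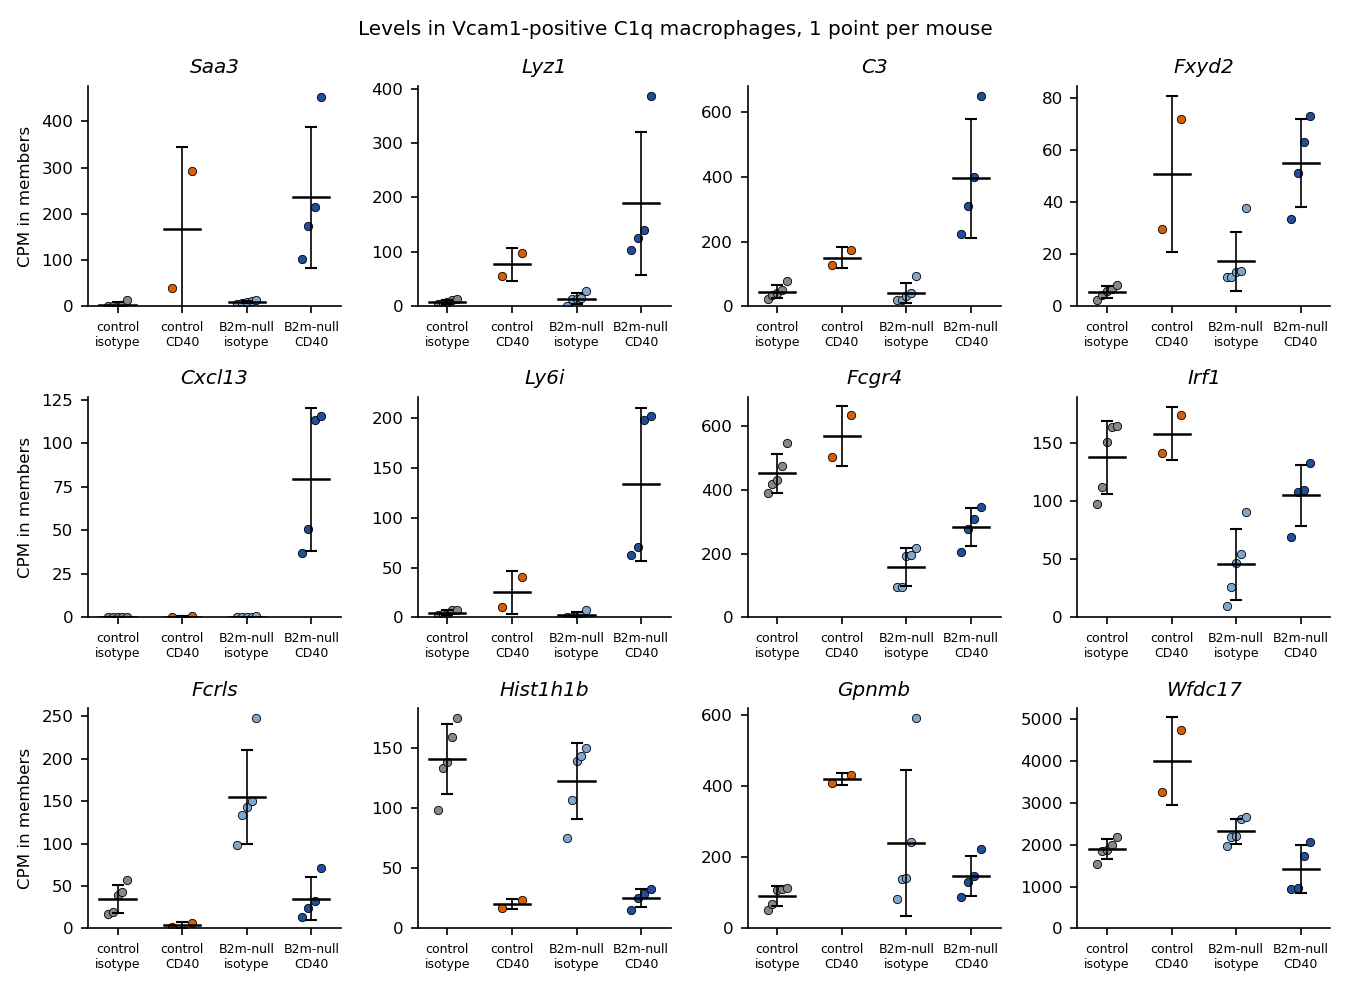
Level in members (CPM, y axis, linear) of 12 genes in the 4 groups (x axis), 1 point per mouse, with the mean as a line and 1 SD as a bar, cut at 0 where the SD exceeds the mean. Saa3, Lyz1, C3 and Fxyd2 are higher under anti-CD40 in both tumour genotypes, Cxcl13 is highest in B2m-null CD40 (37.0 to 116 CPM), and Fcgr4 and Irf1 are lower in B2m-null isotype than in control isotype.

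Under isotype, members from B2m-null tumours held less of the interferon-gamma response, MHC class I and inflammatory genes than members from control tumours, and more of the scavenger genes. Of 10281 genes 634 (6.17%) were called, 257 higher (2.5%) and 377 lower (3.67%). This count rested on the first lanes: it was 34 without the first control isotype lane and 177 without the first B2m-null isotype lane. It was also lower without single mice: 325 without B2m-null isotype replicate 1 mouse 1, 348 without its replicate 2 mouse 2, 391 without control isotype replicate 1 mouse 1 and 351 without mouse 3 of that lane.

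Fcgr4, an activating Fc receptor, had 474, 417, 432, 548 and 391 CPM in control isotype and 196, 94.0, 191, 217 and 96.0 CPM in B2m-null isotype. The groups did not overlap, the log2 change was -1.54 ± 0.20 (adjusted p = 0.00046), and the call held in every alternative run. Abca1, the cholesterol exporter, had 102, 102, 96.9, 122 and 135 CPM against 420, 395, 280, 203 and 407 CPM (1.52 ± 0.17, adjusted p = 0.00015), also kept in every alternative. Irf1, an interferon-gamma-induced transcription factor, had 164, 165, 151, 97.5 and 112 CPM against 47.2, 9.40, 54.5, 91.0 and 26.2 CPM (-1.48 ± 0.29, adjusted p = 0.0046). It lost its call without the first lane of either isotype group. Gas6, a bridge to dying cells, had 64.2, 160, 104, 86.0 and 136 CPM against 285, 367, 280, 254 and 418 CPM (1.478 ± 0.257, adjusted p = 0.0027), and adjusted p was 0.067 without the first control isotype lane. Fcrls rose by 2.2 ± 0.36, Igf1 by 1.14 ± 0.19 and Slc40a1 by 1.60 ± 0.34, and Acod1, which makes itaconate, fell by 2.22 ± 0.59. Fcrls kept its call in every alternative, Igf1 and Slc40a1 lost theirs without the first control isotype lane, and Acod1 without any of 3 lanes or 4 mice. Of the 83 genes named for this comparison 10 kept their calls whichever mouse or lane was left out, and 7 in every alternative.

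Interferon-gamma response genes were lower in 15 of 21 and higher in none (median -1.27). The count was 0 of 21 (median -0.94) without the first control isotype lane and 2 of 21 (median -1.25) without the first B2m-null isotype lane, so the medians moved less than the counts. It was 7 to 9 of 21 without B2m-null isotype replicate 1 mouse 1, B2m-null isotype replicate 2 mouse 2, or control isotype replicate 1 mouse 1 or mouse 3. MHC class I had 9 of 14 lower (median -0.54; 0 and 3 without those lanes), type I interferon 10 of 19 lower (median -0.87; 0 and 1), and inflammatory cytokines 7 of 16 lower (median -0.81; 0 and 5), among them Il1b (-1.57 ± 0.29). MHC class I stood at 5 of 14 without either of those B2m-null mice, type I interferon at 3 to 6 of 19 without any one of those 4 mice, control isotype replicate 2 mouse 1 or the second B2m-null isotype lane, and inflammatory cytokines at 1 without the second B2m-null isotype lane. MHC class II had 4 of 10 lower (median -0.69), and 0 to 8 over the samples left out. That count was 9 of 9 (median -0.90) with cells thinned to 3000 UMIs, 7 of 12 with the lane as unit, 9 of 12 without a filter, 7 of 9 without members holding 2 or more UMIs of other cell types, 8 of 9 without cells holding fibroblast or endothelial UMIs and 1 of 10 at the stricter limits on cells. Scavenger genes were higher in 9 of 15 (median 1.07; 1 and 7, and 5 without the second B2m-null isotype lane), including Stab1 (1.07 ± 0.23), Pf4 (0.96 ± 0.15) and Mrc1 (0.71 ± 0.16). Cxcl9 had 914, 847, 1072, 1022 and 899 CPM in control isotype and 393, 28.2, 409, 908 and 144 CPM in B2m-null isotype, where mice spread widely. B2m was at 3865, 3294, 3013, 3463 and 2967 CPM against 2487, 3167, 2434, 3060 and 2055 CPM (-0.44 ± 0.10, adjusted p = 0.016). Slamf9 was lower (-0.96 ± 0.19, adjusted p = 0.0058).

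Under anti-CD40 members of B2m-null tumours held more Clec5a and Tmem176a and less Wfdc17 and Hspa1b than members of control tumours. Of 10281 genes 268 (2.61%) were called, 70 higher (0.681%) and 198 lower (1.93%) in B2m-null tumours, with 20 called without control CD40 mouse 2, 120 without mouse 1 and 157 without B2m-null CD40 replicate 2 mouse 2. Clec5a, an activating lectin of myeloid cells, had 15.3 and 19.4 CPM in control CD40 and 53.9, 56.4, 43.8 and 47.2 CPM in B2m-null CD40. Its log2 change was 1.39 ± 0.16 (adjusted p = 0.00014) and its call held in every alternative. Tmem176a, a membrane protein of myeloid cells, had 88.1 and 46.2 CPM against 301, 160, 290 and 250 CPM (1.96 ± 0.35, adjusted p = 0.0028). Wfdc17, a secreted inhibitor of proteases, had 3263 and 4755 CPM against 931, 964, 2071 and 1738 CPM (-1.53 ± 0.24, adjusted p = 0.0016). Hspa1b, a heat-shock protein with the close copy Hspa1a, had 230 and 69.2 CPM against 12.1, 6.27, 21.6 and 20.8 CPM (-3.09 ± 0.47, adjusted p = 0.0012). Most of the 47 genes named for this comparison lost their calls when some mouse or lane was left out.

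None of the interferon-gamma, type I interferon, MHC class I and MHC class II genes passed in that comparison, which does not show that they were equal. At an unadjusted p under 0.05 the whole test held 1736 genes, and DESeq2 called 292. Lipid-associated genes were lower in 4 of 21 (median -0.33) and in 0 without either control CD40 mouse. Slc13a3 was higher (0.81 ± 0.19, adjusted p = 0.022). The melanoma list was at 265 to 894 CPM in control CD40 and 42.7 to 270 CPM in B2m-null CD40, with 2 of 8 genes lower (median -2.69), and the fibroblast list at 14.4 to 196 and 174 to 2405 CPM, with none of 8 called (median 2.23). Without members holding 2 or more UMIs of other cell types 202 genes were called, and 318 without cells holding a fibroblast or endothelial UMI.

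**Figure D5:**
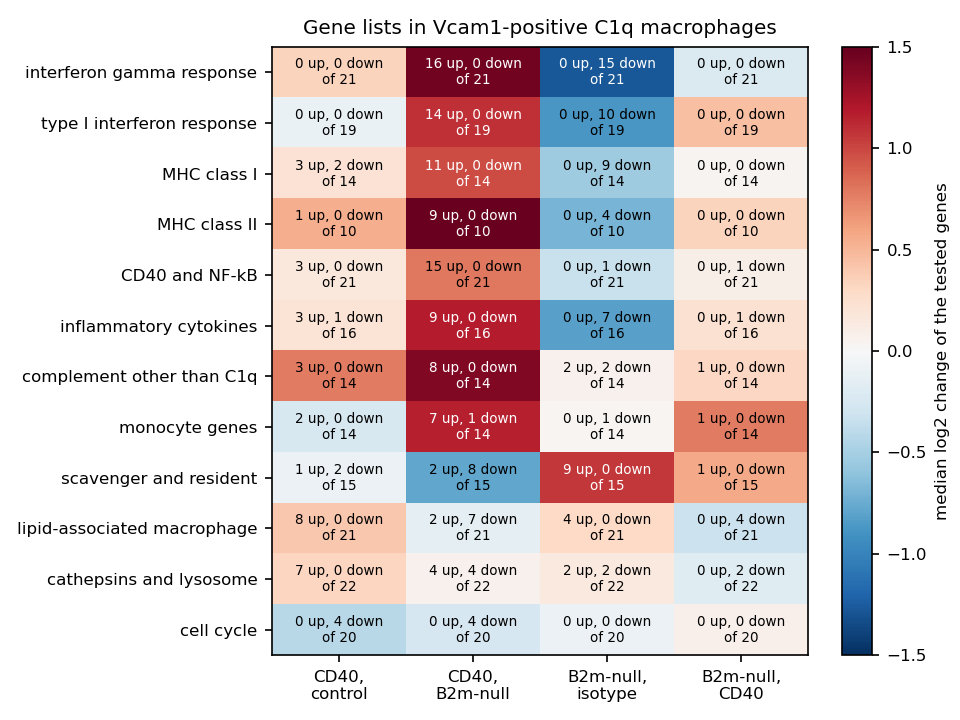
Gene lists (rows) in the 4 group comparisons (columns: anti-CD40 in control and in B2m-null tumours, then B2m-null against control tumours under isotype and under anti-CD40). Colour is the median log2 change of the tested genes and the text gives how many were called higher (up) and lower (down) of those tested. The interferon-gamma list is 16 of 21 higher for anti-CD40 in B2m-null tumours, 15 of 21 lower for B2m-null under isotype and 0 of 21 in the other columns. The columns share groups of mice: anti-CD40 in control tumours and genotype under isotype both use the control isotype mice. The B2m-null isotype mice likewise enter both the 16 of 21 and the 15 of 21, so these counts are not independent of each other. Groups differ in their number of mice, so counts are not compared between columns.

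The difference between the CD40 effects of the tumour genotypes was tested itself, as an interaction. It passed for 423 of 10281 genes (4.11%), 202 with a higher change in B2m-null tumours (1.96%) and 221 with a lower one (2.15%). The count was 63 without control CD40 mouse 2, 113 without mouse 1, 88 without the first control isotype lane and 195 without the first B2m-null isotype lane. Leaving out B2m-null isotype replicate 1 mouse 1, control isotype replicate 1 mouse 3 or B2m-null CD40 replicate 2 mouse 2 gave 206, 238 and 245, and leaving out the second B2m-null isotype lane gave 647.

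Ass1, an enzyme of arginine synthesis, had 11.9 to 20 CPM in control isotype, 12.6 and 18.6 CPM in control CD40, 0 to 16.3 CPM in B2m-null isotype and 51.2, 65.5, 45.2 and 49.7 CPM in B2m-null CD40. Its mice overlapped between the control groups and not between the B2m-null groups, and the interaction was 2.51 ± 0.44 (adjusted p = 0.0027). Abca1 was at 165 and 153 CPM in control CD40 and at 152, 108, 172 and 143 CPM in B2m-null CD40, above the control isotype mice in the first case and below the B2m-null isotype mice in the second (-1.70 ± 0.28, adjusted p = 0.0016). Pet100, an assembly factor of the respiratory chain, had 27.4 to 36.1, then 95.3 and 77.7, then 46.2 to 75.0 and 43.0 to 55.2 CPM in the 4 groups (-1.57 ± 0.19, adjusted p = 7.9e-05). These 3 calls held in every alternative. Most of the 57 genes named for the interaction lost theirs when some mouse or lane was left out. Gpnmb had the opposite tendency in the 2 genotypes, with 84.0 to 593 CPM in B2m-null isotype and 87.6 to 224 CPM in B2m-null CD40 (-2.52 ± 0.53, adjusted p = 0.011). The melanoma list moved the same way, with 2 of 8 genes at a lower change in B2m-null tumours (median -2.96). Il1b had 93.1 to 174 CPM, then 45.0 and 68.0, then 30.1 to 141 and 49.0 to 111 CPM (2.17 ± 0.45, adjusted p = 0.0097). Slc13a3 had a higher change in B2m-null tumours (1.2 ± 0.26, adjusted p = 0.012), and the interaction of Slamf9 (0.52) and Ms4a7 (-0.30) did not pass (adjusted p = 0.36 and 0.40).

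Of the lists, 5 of 19 type I interferon genes had a higher change in B2m-null tumours (median 1.23), among them Isg15 (2.14 ± 0.50), Irf7 (2.11 ± 0.45) and Zbp1 (1.80 ± 0.50), with 0 to 11 of 19 over the samples left out, and 0 without either control CD40 mouse or without the first control isotype lane. Of 21 lipid-associated genes 7 had a lower change in B2m-null tumours (median -0.53), among them Ctsd (-1.29 ± 0.19) and Nceh1, a cholesterol ester hydrolase (-1.14 ± 0.19), with 3 without the first control isotype lane and 4 without either control CD40 mouse, the first B2m-null CD40 lane or the first B2m-null isotype lane. A single interferon-gamma gene of 21 passed (Socs3, 1.25 ± 0.30), at a list median of 1.00.

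Whether the CD40 effect in Vcam1-positive cells differed from that in Vcam1-negative cells of the same mice was tested as well. In control tumours 93 of 10638 genes (0.874%) passed, 67 with a higher (0.63%) and 26 with a lower (0.244%) change in members, and in B2m-null tumours 77 genes (0.724%), 50 higher (0.47%) and 27 lower (0.254%). Ms4a7 passed in both, its change being higher in members by 0.71 ± 0.14 (adjusted p = 0.0097) in control and 0.49 ± 0.12 (adjusted p = 0.047) in B2m-null tumours. In control tumours the change of Sema4d, a semaphorin, was higher in members (1.42 ± 0.21), and those of Fcgrt (-1.01 ± 0.16) and Klf2 (-0.90 ± 0.13) were lower. In B2m-null tumours Tmem176a (1.15 ± 0.17), Ccr2 (1.04 ± 0.16) and Cfb (0.97 ± 0.19) had a higher change in members, as did 3 MHC class II genes, H2-Eb1 (0.86 ± 0.17) among them, and 5 of 20 cell cycle genes had a lower change (median -0.64), Plk1 (-1.25 ± 0.28), Ccna2 (-1.22 ± 0.28) and Ccnb1 (-1.18 ± 0.24) being mitotic regulators. The counts were small and moved with single samples. Leaving out some mouse or lane removed the calls of most of the 42 genes named in control tumours and of all 35 named in B2m-null tumours. In control tumours 14 genes passed without control CD40 mouse 2, 40 without mouse 1, 40 and 48 without the first and second control isotype lanes and 56 without control isotype replicate 2 mouse 2. In B2m-null tumours 1 passed without the second B2m-null isotype lane, 8 and 37 without its mouse 1 and mouse 2, and 38 without mouse 1 of the first. Without the first and second B2m-null CD40 lanes 26 and 15 passed, with 27, 18 and 27 for 3 of their mice, and 123 passed without the second control isotype lane. The cell cycle count there ran from 0 to 10 of 20.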

How the data were processed

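UMI counts per gene and barcode, with hashtag counts in the same matrices, were deposited by the authors for each of 8 lanes. Per the submitters' processing notes they were made with bcl2fastq 2.20.0.422 and Cell Ranger 3.0.0 on mm10 from 10x 3' libraries. Whether strand was used and how reads shared by close paralogs were treated is not given in the sources used here.

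Barcodes were selected by the rule stated in the report. Hashtags of each lane were normalised by the centred log ratio and assigned with a mixture model (scikit-learn 1.9.0, posterior of at least 0.9, at least 20 hashtag counts); barcodes with hashtags of 2 or more mice or none were left out of the tests over mice, and no other doublet caller was run. Counts were summed per mouse and cell set (at least 20 cells) and expressed as CPM. Differences were tested with edgeR 4.0.16 (quasi-likelihood test, TMM, filterByExpr, R 4.3.3) across all genes other than those of the rule, with Benjamini-Hochberg adjustment and a threshold of 0.05. Cell sets were compared with the mouse as block, and group comparisons shared one fit over the 16 mice. SEs are the log2 change over the square root of F. Shares were compared by exact two-sided permutation over mice (scipy 1.17.1), adjusted over 4 comparisons. Since the labels do not say that mice of a group came from separate experiments, p-values measure the spread between these mice. Scripts were tested on simulated data.

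Named genes were the 12 higher and 12 lower with the largest change among those called, at a mean of at least 20 CPM in the higher group, the same way in every mouse or without overlap between groups, plus up to 4 per list. The members and lists were chosen with earlier results of these data known. Alternatives covered size factors, filters, thresholds, depth, lane as unit, DESeq2 1.42.0 and each mouse or lane left out; 1, leaving out cells with fibroblast or endothelial UMIs, was chosen after seeing the data. Total UMIs per mouse in members ran from 106419 to 6652185, and intervals cover counting error only.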

Additional observations from a re-analysis of the deposited data

Results flagged for a closer look

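Levels of 28 genes described above and 2 shares of cells were checked within the 3 groups of 4 or 5 mice. In 8 of these 90 checks a mouse stood apart from the rest of its group, and chance gives about 1 in 20. In the B2m-null isotype group Cxcl13 was 0.507 CPM in replicate 1 mouse 1 and 0 in the others, Fxyd2 was 37.6 CPM and Il1b 141 CPM in replicate 1 mouse 2, which rests on 21 members, and Ly6i was 7.47 CPM in replicate 2 mouse 1. In B2m-null CD40, Lyz1 was 386 CPM in replicate 1 mouse 1 and Il1b 49.0 CPM in replicate 1 mouse 2. In control isotype, Saa3 was 13.4 CPM in replicate 1 mouse 2 and Ms4a7 819 CPM in replicate 2 mouse 2.

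The CD40 effect differed between tumour genotypes, by the interaction test of edgeR, for these further genes of the members, given as log2 differences (B2m-null minus control). Most of the 57 genes named for this interaction lost their calls when some mouse or lane was left out. Higher in B2m-null tumours were Plac8 (2.5), Ly6a (2.38), Il1b (2.17), Slfn1 (2.15), Isg15 (2.14), Irf7 (2.11), Ms4a4c (1.99), Ifi213 (1.98), Cfb (1.97), Cxcl1 (1.82), Zbp1 (1.80) and Ass1 (2.51). Lower were Syt4 (-3.90), Tyr (-3.88), Hspa1b (-3.47), Gpnmb (-2.52), Mylip (-2.12), Bhlhe41 (-1.94), Pianp (-1.86), Wfdc17 (-1.73), Abca1 (-1.70), Mier3 (-1.65), Pet100 (-1.57) and Gask1b (-1.57). Tyr is a gene of the melanoma list. The summed list in members was 86.9 to 467 CPM in control isotype, 265 to 894 in control CD40, 103 to 2536 in B2m-null isotype and 42.7 to 270 CPM in B2m-null CD40.

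The CD40 effect also differed between Vcam1-positive and Vcam1-negative cells, though few of these calls were stable. Most of the 42 genes named for this difference in control tumours lost their calls when some mouse or lane was left out. All 35 named in B2m-null tumours did so. In control tumours the change was higher in members for Hbb-bs (7.56), Timp1 (2.78), Chil3 (1.92), Upp1 (1.56), Ms4a4c (1.45) and Sema4d (1.42), and lower for Pdgfc (-1.41), Klf9 (-1.30), Nup210 (-1.09), Tns1 (-1.08), Stard8 (-1.07) and F13a1 (-1.06). In B2m-null tumours it was higher for Clec4e (1.30), Tmem176a (1.15), Sowahc (1.11), Lpin1 (1.06), Ccr2 (1.04) and Cxcr4 (0.99), and lower for Ctsk (-2.05), Pimreg (-1.95), Neil3 (-1.57), Plk1 (-1.25), Ccna2 (-1.22) and Ccnb1 (-1.18). Hbb-bs encodes a haemoglobin chain, and Pimreg, Plk1, Ccna2 and Ccnb1 act in cell division.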

How the results depend on the processing

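Counts of called genes are given by comparison, with 2160 called between Vcam1-positive and Vcam1-negative cells, 3575 against the Lyve1-Cd163 set, 907 and 2401 for anti-CD40 in control and B2m-null tumours, 634 and 268 for tumour genotype under isotype and anti-CD40, 423 for the interaction, and 93 and 77 for the difference between cell sets in control and B2m-null tumours. Size factors of DESeq2 within edgeR kept all 9 counts within 1.5 times, as did DESeq2 for the 7 counts it was run on (644 and 1692 for anti-CD40). Without a filter the genotype counts were 1017 and 702 (339 higher and 363 lower under anti-CD40), the interaction 853 and the set differences 236 and 289. At most 5% mitochondrial and at least 1000 UMIs gave 2231 against the Lyve1-Cd163 set, 1462 for anti-CD40 in B2m-null tumours, 316 for genotype under isotype, and 31 and 12 for the set differences. With the lane as unit anti-CD40 in control tumours gave 340, genotype 320 and 61, and the interaction 56. At 3000 UMIs per cell the counts were 1140, 2075, 534, 1476 and 388 for the first 5 comparisons. Without members holding 2 or more UMIs of other cell types anti-CD40 in control tumours gave 490, genotype under isotype 294 and the interaction 281; there Ctsk reversed to -0.40. A Vcam1 threshold of 2 UMIs gave 39 and cells without fibroblast or endothelial UMIs, an alternative chosen after seeing the data, gave 129 for the set difference in B2m-null tumours. Vcam1-negative cells of matched depth gave 830, and reversed B2m (0.0477), Egr1 (0.0851), Fcgr2b (0.0193) and Hspd1 (-0.0051), none of them called there. The cause of these shifts was not tested, beyond the fewer cells or genes that some alternatives use.

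Leaving out 1 mouse or lane gave 1544 to 2277 between Vcam1-positive and Vcam1-negative cells, 2941 to 3589 against the Lyve1-Cd163 set, 168 to 1078 and 1406 to 2468 for anti-CD40 in control and B2m-null tumours, 34 to 768 and 20 to 383 for genotype under isotype and anti-CD40, 63 to 647 for the interaction, and 14 to 107 and 1 to 123 for the set differences. With a single mouse or pool left in control CD40, that mouse is assumed to vary like the other groups. No share comparison of Vcam1-positive cells passed under any alternative (lowest p 0.032, adjusted 0.13, exact permutation).

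Replicate numbers of the lanes do not pair the samples: deviations of same-numbered lanes correlated at -0.02, 0.10 and 0.04 over 11338 genes. A fit with the replicate number as block gave 2438 for anti-CD40 in B2m-null tumours and 635 for genotype under isotype. Between cell sets of the same mice, leaving the mouse out as a block (no replicate block) gave 550 against the Vcam1-negative cells and 2674 against the Lyve1-Cd163 set.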

Other observations

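The integrins and their partners, which include the receptors that bind Vcam1, differed between the cell sets. Of 19 tested genes of that list 11 were lower and 2 higher in Vcam1-positive than in Vcam1-negative cells (median log2 -0.26, against 0.0001 over all tested genes, of which 12.8% were lower and 11.5% higher). Itgam, the alpha chain of complement receptor CR3, was at -0.72 ± 0.07, its partner Itgb2 at -0.40 ± 0.05 and the hyaluronan receptor Cd44 at -0.34 ± 0.04 on the log2 scale, lower in 16, 15 and 16 of 16 mice. Against the Lyve1-Cd163 set 9 of 17 were higher and 3 lower (median 0.19, against 0.01 over all tested genes, of which 22.6% were higher and 22.3% lower), with Itgb5 at 1.22 ± 0.10 and Itgav at 0.82 ± 0.08, both higher in 16 of 16 mice, and Itgam at -0.80 ± 0.07. Anti-CD40 in B2m-null tumours raised Itgb7 (2.32 ± 0.33), Itgal (1.53 ± 0.27) and Itgb2 (0.70 ± 0.11) in the members and lowered Itgb1 (-0.61 ± 0.09). They are among 4 of 19 genes called higher and 3 lower there, with 12 not called (median 0.15, against -0.01 over all tested genes). Of all tested genes 12.6% were higher and 10.7% lower in that comparison, so the list as a whole stood little apart. All of these calls are edgeR's, at an adjusted p under 0.05.

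Of the SLAM family and its adaptors, to which Slamf9 belongs, 6 of 9 tested genes were higher and none lower in members than in the Lyve1-Cd163 set (median 0.39, against 0.01 and 22.6% higher over all tested genes). Against Vcam1-negative cells 2 of 9 were higher and 3 lower (11.5% and 12.8% of all tested genes). Under isotype 4 of 9 were lower in members of B2m-null tumours and none higher (3.67% of all tested genes were lower). The calls of that genotype comparison rested on the first lanes, as described above, and the SLAM count without them is not given here. Against the Lyve1-Cd163 set the adaptor Sh2d1b1 was at 1.92 ± 0.17, Slamf6 at 0.85 ± 0.17 and Slamf8 at 0.77 ± 0.10, each higher in 15 of 16 mice. Anti-CD40 in B2m-null tumours gave 4 of 9 higher, Slamf8 (1.67 ± 0.35), Slamf6 (1.56 ± 0.37) and Slamf7 (0.75 ± 0.16) among them, and 1 lower, Cd84 (-0.50 ± 0.12), beside 12.6% higher and 10.7% lower over all tested genes. Of the Ms4a family, to which Ms4a7 belongs, 6 of 9 were lower and none higher in Vcam1-positive than in Vcam1-negative cells (median -0.26, against 0.0001 and 12.8% lower over all tested genes), with Ms4a4c at -1.23 ± 0.13 and lower in 16 of 16 mice. With cells thinned to 3000 UMIs 4 of 6 were lower and 1 higher, and against cells of matched depth 4 of 8 lower and 1 higher (medians -0.26 and -0.13).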
